A study of Mus musculus with 52 samples.

Results

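The genes described here are 9 genes of myelin and of the oligodendrocyte, Mbp, Mobp, Cnp, Mal, Mog, Mag, Opalin, Olig1 and Olig2, chosen by name from 39144 genes listed in any of 8 mouse tissues. All 9 were listed in brain, among 23716 genes, and all 9 in eyes, among 28210 genes. Between 5 and 8 were listed in each of the other tissues. RNA-seq compared wild-type mice with mice that lack the long noncoding RNA locus Tug1 on both chromosomes (Tug1-/-, allele Tug1_tm1.1Vlcg), in which a lacZ cassette takes the place of the gene body and the promoter and first exon remain. The series lists 52 samples. Of these, 46 belong to the tissues analysed here and 6 testes samples of F1 hybrid mice were not analysed here.

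All labelled samples were male. Primary fibroblasts of littermate mid-gestation mouse embryos (MEF), eyes, spleen, liver and heart had 3 wild-type and 3 Tug1-/- samples each, and prostate had 3 and 2. Both genotypes of these tissues had the mixed background C57BL/6J and 129S6 without the Neo cassette. Testes came from 4 wild-type, 4 Tug1-/- and 3 rescue mice. Rescue mice were Tug1-/- mice that also carried a Tug1 transgene, tg(Tug1), and CAGs-rtTA3, a doxycycline-dependent activator driven by a ubiquitous promoter, and were fed doxycycline. In testes the wild-type label reads C57BL/6J with no Neo and the other 2 labels read Neo and LacZ, so the Neo label and the genotype cannot be told apart there. The brain values come from a dataset that the study analysed again, and the number, sex and background of those mice are not in the labels used here. The study describes its tissues, apart from MEF, as adult.

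The deposited tables hold 1 mean per tissue and genotype, in TPM (read counts scaled for the length of the gene and for the depth of the library), and no values of single samples. The columns of the authors' own comparisons, which hold a standard error and a p-value for each gene, were not used. From the means alone no standard deviation, interval or test can be computed, depth per sample is unknown, and each value below is the authors' mean. A difference is given as the log2 ratio of the Tug1-/- mean over the wild-type mean after 0.1 TPM was added to both, for genes of at least 1 TPM in either mean, and 1.5-fold was used as a limit of size. Whether any of these differences is larger than the spread between mice was not tested.

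Oligodendrocytes wrap the axons of the central nervous system in myelin, a stack of compacted membrane that speeds conduction. Mbp encodes myelin basic protein, which holds the inner faces of the membrane together, and Mobp encodes a small basic protein of the same compact layers. Cnp encodes a phosphodiesterase of the cytoplasm-filled channels of myelin, Mal a membrane protein of lipid rafts, Mog and Mag adhesion proteins of the outer and of the axon-facing surface, and Opalin a transmembrane protein of mature oligodendrocytes. Olig1 and Olig2 encode basic helix-loop-helix transcription factors that specify the lineage, and MYRF and SOX10 are transcription factors that switch on myelin genes. In peripheral nerves the Schwann cell makes myelin in their place.

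The members lie on 8 chromosomes of GRCm38. Olig2 (ENSMUSG00000039830.8, chr16:91225550-91228677, plus strand) and Olig1 (ENSMUSG00000046160.6, chr16:91269772-91271933, plus strand) are neighbours with 41094 bases between them. Mbp spans 110492 bases and is the longest, and Olig1 spans 2162 bases and is the shortest. Other annotated genes overlap 5 of the 9, and the strand setting of the counting was not given. Cnp overlaps the protein-coding gene Dnajc7 on the opposite strand. Olig1 overlaps the noncoding RNA Gm15966 on the opposite strand, Mbp and Mog each overlap a small gene on the opposite strand, and Mobp overlaps a noncoding transcript on its own strand. Overlap here is that of whole gene spans, and whether exons overlap was not read. Without strand, reads of Cnp and Dnajc7, or of Olig1 and Gm15966, cannot be told apart where their exons overlap. These levels are uncertain to that extent. Gm15966 was listed only in testes.

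RefSeq promoter windows of GRCm38.p6, from 250 bases before to 50 after a start site, were at hand for 7 of the 9 members in 9 windows, with none for Mbp and Olig1. Each was searched on both strands for the MYRF core CTGGCAC and its other form, which is CTGGTAC, for the SOX core ACAAAG and its other form, which is ACAATG, for CAGCTG (an E-box, the class of site that OLIG proteins bind) and for TATAAA. The MYRF letters were found in the windows of Mag, Cnp, Mog and Opalin, 4 of the 7 members and 5 of the 9 windows, against 7.10% of all 32851 windows. The SOX letters were found for Mag, Mobp, Cnp, Olig2 and Opalin, in 6 of the 9 windows, against 28.6% of all windows, with 6 matches in the Mobp window alone. Opalin held the E-box, present in 16.3% of all windows, and Olig2 held TATAAA, present in 13.6%. A match is a description of the letters and not a binding site. The windows of the 4 members with the MYRF letters are printed 5′ to 3′ on the strand of the gene, followed by that of Mal, whose level differed most between genotypes in eyes and which held none of the 4 motifs. Capitals mark any of the 4 motifs.

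Mag, chr7:30914814-30915113, minus strand: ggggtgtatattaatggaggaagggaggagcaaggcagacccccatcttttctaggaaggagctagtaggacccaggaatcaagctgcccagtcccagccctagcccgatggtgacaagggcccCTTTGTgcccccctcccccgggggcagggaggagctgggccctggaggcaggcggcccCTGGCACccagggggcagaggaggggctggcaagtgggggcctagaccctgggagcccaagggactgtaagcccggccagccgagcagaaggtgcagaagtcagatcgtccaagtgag

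Cnp, chr11:100574689-100574988, plus strand: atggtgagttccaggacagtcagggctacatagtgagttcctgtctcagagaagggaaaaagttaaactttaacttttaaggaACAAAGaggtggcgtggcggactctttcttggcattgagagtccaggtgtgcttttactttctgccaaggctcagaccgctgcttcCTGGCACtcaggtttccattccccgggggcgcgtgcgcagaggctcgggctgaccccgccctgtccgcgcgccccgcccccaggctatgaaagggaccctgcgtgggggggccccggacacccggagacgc

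Mog, chr17:37023349-37023648, minus strand: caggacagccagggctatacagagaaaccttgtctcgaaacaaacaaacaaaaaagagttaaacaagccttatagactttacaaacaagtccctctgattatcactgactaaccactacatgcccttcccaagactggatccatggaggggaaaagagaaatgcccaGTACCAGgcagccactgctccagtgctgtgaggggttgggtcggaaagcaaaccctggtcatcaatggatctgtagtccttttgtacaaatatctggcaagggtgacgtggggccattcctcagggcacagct

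Opalin, chr19:41077064-41077363, minus strand: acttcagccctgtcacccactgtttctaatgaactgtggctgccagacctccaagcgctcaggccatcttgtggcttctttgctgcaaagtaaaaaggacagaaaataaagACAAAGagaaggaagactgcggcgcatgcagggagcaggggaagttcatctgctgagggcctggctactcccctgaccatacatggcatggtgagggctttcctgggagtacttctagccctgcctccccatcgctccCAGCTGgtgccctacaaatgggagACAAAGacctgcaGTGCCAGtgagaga

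Mal, chr2:127656646-127656945, minus strand: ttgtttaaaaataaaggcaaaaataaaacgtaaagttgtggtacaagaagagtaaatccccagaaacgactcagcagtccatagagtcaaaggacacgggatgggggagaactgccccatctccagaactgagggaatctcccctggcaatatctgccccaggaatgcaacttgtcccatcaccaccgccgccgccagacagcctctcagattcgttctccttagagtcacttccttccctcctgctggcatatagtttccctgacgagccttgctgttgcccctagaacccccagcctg

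Counted from the start site as 0, the first base of the MYRF letters lay at -68 in this Mag window, at -81 in Cnp, at -83 in Mog and at 36 in Opalin. A second Mag window overlaps the first and holds the same letters, and the other Mag window holds none of the 4 motifs. In Mog and Opalin the printed strand carries the reverse complement of the MYRF letters.

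Tug1 itself was checked first in each tissue. Its mean level in Tug1-/- tissue was between 0.000825 and 0.00512 of the wild-type mean in the 7 tissues other than testes, for example 57.03 TPM in wild-type brain and 0.215 TPM in Tug1-/- brain and 57.5 and 0.235 TPM in eyes. In testes it was 40.1 TPM in wild type, 0.885 TPM in Tug1-/- and 1.605 TPM in rescue. Of 24 marker genes, 3 for each tissue, 22 were highest in the tissue of their label. The exceptions were Slc17a7, which was higher in eyes than in brain, and Spink1, which was low in prostate and higher in spleen.

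Brain held the highest mean of each member in both genotypes, except for Mal in wild type. Wild-type brain had 1434 TPM of Mbp, 711 TPM of Mobp, 473 TPM of Cnp and 444 TPM of Mal. Mog stood at 208 TPM, Mag at 196 TPM and Olig1 at 172 TPM, and Opalin and Olig2 were the lowest at 41.8 and 39.7 TPM. Mbp ranked 36 among the 23716 genes listed in brain. The 9 members summed to 3720 TPM, which is 0.372% of the total, and Mbp made 38.6% of that sum.

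Eyes came next for the members other than Cnp and Mal, at a lower level. The wild-type mean in brain over that in eyes was 4.66 for Mbp, 4.90 for Mag, 5.51 for Cnp, 5.54 for Mobp, 6.63 for Mog and 7.002 for Opalin. The transcription factors stood farther apart, with a ratio of 11.97 for Olig1 and 15.0 for Olig2. Mal was the exception, with 454 TPM in wild-type eyes and 444 TPM in wild-type brain, and it alone made 42.4% of the members' sum in wild-type eyes. Whether the order of these neighbours exceeds the spread between mice was not tested.

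Outside the nervous system the members parted. Opalin was listed only in brain and eyes, and Olig2 also in testes, at 0.0312 TPM in wild type. Cnp was present at 4.90 TPM or more in every mean, and in spleen it reached 247 TPM in wild type, above its level in eyes of 85.8 TPM. Mal reached 106 TPM in wild-type prostate and 17.1 TPM in heart, and Mbp 33.8 TPM in spleen and 16.6 TPM in prostate. Mag stood at 12.3 TPM in wild-type testes, where Mog and Mobp were at 0.179 and 0.221 TPM. Olig1 was at 8.14 TPM in wild-type liver, where Olig2 was not listed.

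**Figure D1:**
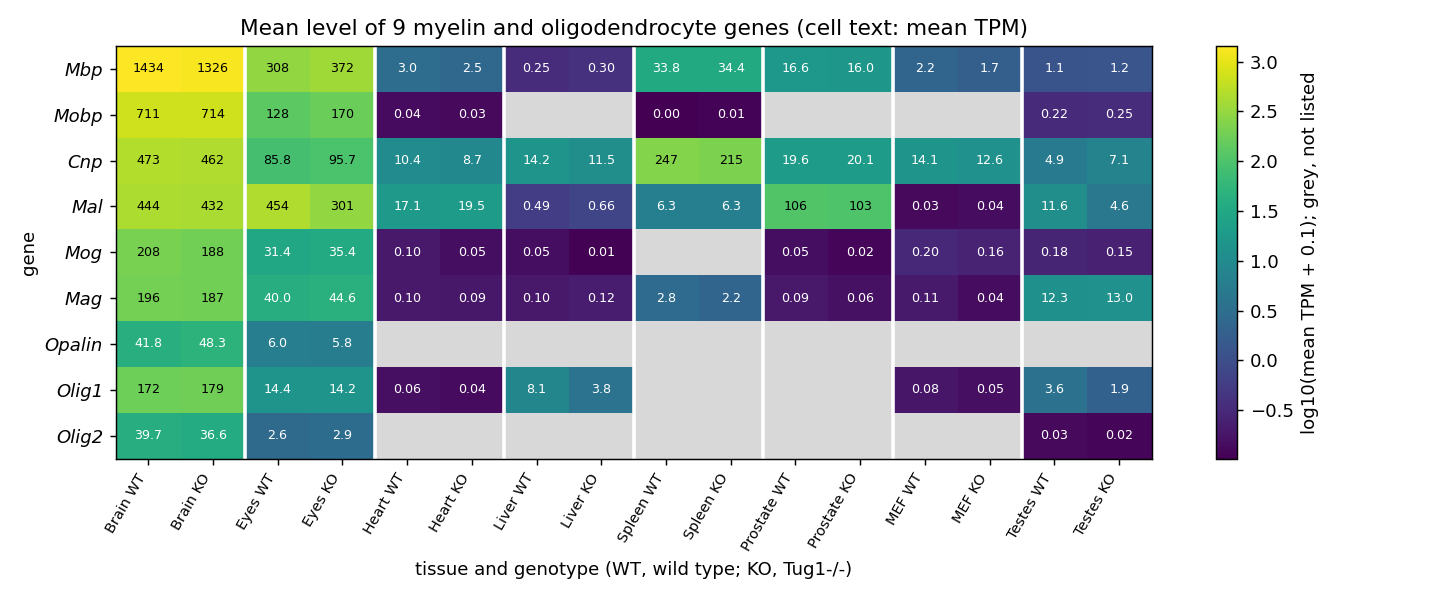
Mean level of each member (rows) in each tissue and genotype (columns), as the authors' mean TPM written in the cell and by colour on a log10 scale, with grey for genes not listed in that tissue. Brain and eyes hold all 9 members, while Cnp, Mal, Mbp and Mag are also above 10 TPM in at least 1 other tissue, such as Cnp at 247 TPM in wild-type spleen.

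The first comparison asked how the members' levels in Tug1-/- brain stood to those in wild-type brain. None of the 9 members was past 1.5-fold, where 6.14% of 17729 genes were. Of the 1088 genes past the limit, 31 were of at least 20 TPM in either mean, as all 9 members are, which is 0.39% of the 7947 genes at that level. The median log2 ratio of the members was -0.04, beside -0.03 over all genes, with 3 members above 0 and 6 below. In bulk tissue, fewer cells of a type and less RNA per cell cannot be told apart.

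Of the genes of compact myelin, Mbp was 1434 TPM in wild-type brain and 1326 TPM in Tug1-/- brain, a log2 ratio of -0.11. Mobp was 711 and 714 TPM, a log2 ratio of 0.01. These are the most abundant members, and both means of each lie above those of the other 7.

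Cnp was 473 TPM in wild-type brain and 462 TPM in Tug1-/- brain, and Mal was 444 and 432 TPM, log2 ratios of -0.03 and -0.04. Dnajc7, which overlaps Cnp, was 122 and 120 TPM. The surface proteins were both a little lower in the Tug1-/- mean. Mog was 208 and 188 TPM, at -0.15 the lowest log2 ratio of the 9, and Mag was 196 and 187 TPM, a log2 ratio of -0.07. Opalin had the highest log2 ratio, 0.21, with 41.8 TPM in wild-type brain and 48.3 TPM in Tug1-/- brain.

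The lineage factors Olig1 and Olig2, neighbours on chromosome 16, had log2 ratios of opposite sign. Olig1 was 172 TPM in wild-type brain and 179 TPM in Tug1-/- brain, a log2 ratio of 0.06. Olig2 was 39.7 and 36.6 TPM, a log2 ratio of -0.12. The authors' mean normalized count over all brain libraries was 360 for Opalin and 432 for Olig2, the lowest of the members, and 53841 for Mbp, the highest, so the means of Opalin and Olig2 rest on the fewest reads.

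The other genes of myelin and of the lineage were read from lists beside the members. Of 31 other myelin and mature oligodendrocyte genes, none was past 1.5-fold in brain, 3 were above 0 and 28 below, and the median log2 ratio was -0.09. Enpp2, the enzyme autotaxin, was 490 TPM in wild-type brain and 456 TPM in Tug1-/- brain. Car2, a carbonic anhydrase, was 359 and 341 TPM, and Cldn11, the tight junction protein of myelin, was 356 and 328 TPM. Of the factors that switch on myelin genes, Myrf was 32.5 and 28.01 TPM and Sox10 was 52.6 and 47.1 TPM, both named after their values were seen. Sox10 had the lowest log2 ratio, -0.16, of 13 lineage factors, of which 3 were above 0 and 10 below. The most abundant of these factors were Id2 at 202 and 193 TPM, Id4 at 118 and 115 TPM and Sox8 at 53.8 and 55.6 TPM.

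None of 13 transcription factors of the lineage was past 1.5-fold, with a median log2 ratio of -0.03, and none of 12 precursor genes was, with a median of 0.02. Pdgfra, the growth factor receptor that marks the precursors, was 25.5 TPM in wild-type brain and 26.2 TPM in Tug1-/- brain. Gpr17, a receptor of cells about to form myelin, was 43.3 and 41.6 TPM. Across the lists, the medians thus stood at 0.02 for precursor genes and at -0.09 for the other myelin genes, and whether they differ was not tested.

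Genes of the other cell types of brain were likewise within 1.5-fold. None of 14 neuron, 10 astrocyte, 10 microglia, 8 brain endothelial or 7 choroid plexus genes was past the limit, with medians between -0.21 for endothelial and 0.08 for microglia genes. Lists of brain regions stood on both sides of 0. All 8 cerebellum genes were below 0, with a median of -0.15, while 7 of 8 striatum genes were above 0, with a median of 0.09, and the 8 cerebral cortex genes had a median of 0.03. The part of regional content in the members' ratios was not tested.

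**Figure D2:**
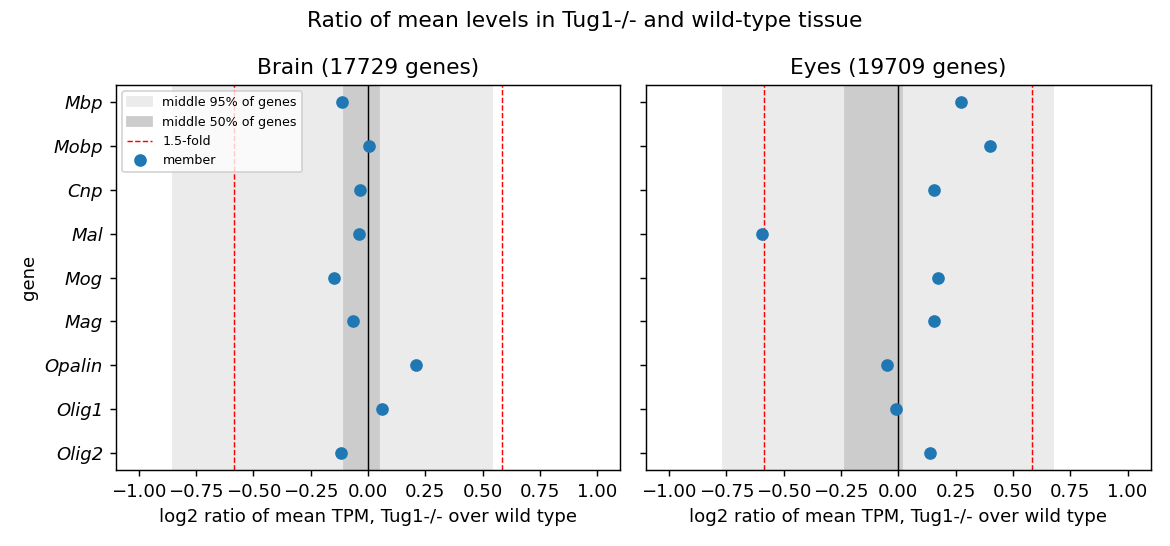
Log2 ratio of the Tug1-/- mean over the wild-type mean of each member in brain (left) and eyes (right), with grey bands for the middle 50% and 95% of all genes of at least 1 TPM and dashed lines at 1.5-fold. In brain the members run from -0.15 for Mog to 0.21 for Opalin, and in eyes from -0.59 for Mal to 0.40 for Mobp.

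In eyes, Mal stood apart from the other members. It was 454 TPM in wild-type eyes and 301 TPM in Tug1-/- eyes, a log2 ratio of -0.59, and was the 1 member past 1.5-fold, where 7.87% of 19709 genes were past it in either direction and 4.68% were past it and lower. The median log2 ratio of all genes in eyes was -0.11. Relative to that median, Mal was at -0.49, inside the limit. The median of the members was 0.16, and 0.27 relative to all genes.

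The other members were level or higher in the Tug1-/- mean. Mobp was 128 TPM in wild-type eyes and 170 TPM in Tug1-/- eyes, a log2 ratio of 0.40, and Mbp was 308 and 372 TPM, a log2 ratio of 0.27. Cnp was 85.8 and 95.7 TPM and Mag 40.0 and 44.6 TPM, both with a log2 ratio of 0.16, and Mog was 31.4 and 35.4 TPM, a log2 ratio of 0.17. Olig2 was 2.65 and 2.93 TPM.

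Olig1 and Opalin were nearly level. Olig1 was 14.4 and 14.2 TPM and Opalin was 5.97 and 5.77 TPM, log2 ratios of -0.01 and -0.05, which became 0.10 and 0.06 relative to the median of all genes. As a share of the members' sum, Mbp was 28.7% in wild-type and 35.7% in Tug1-/- eyes, while Mal was 42.4% and 28.9%.

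Of the 31 other myelin genes, none was past 1.5-fold in eyes, 20 were above 0 and 11 below, and the median log2 ratio was 0.10. Bcas1, a gene of newly myelinating cells, was 43.7 TPM in wild-type eyes and 57.1 TPM in Tug1-/- eyes, and Ugt8a, an enzyme of myelin galactolipids, was 12.9 and 16.3 TPM. Gpr37, a receptor of mature oligodendrocytes, was lower at 77.3 and 61.2 TPM.

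Of the lineage factors, 12 of 13 were measured at 1 TPM or more in eyes, and none was past 1.5-fold, with a median of -0.17. Of the precursor genes, 11 of 12 were, and 2 were past the limit. Tmem100 was 14.6 TPM in wild-type eyes and 22.3 TPM in Tug1-/- eyes, and Matn4 was 18.0 and 11.3 TPM. Pdgfra was 18.8 TPM in both.

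Genes of other tissues of the eye and its surroundings also differed between these means, in both directions. Of 8 measured Schwann cell genes, 2 were past 1.5-fold and both were higher. Prx, a scaffold gene of Schwann cell myelin, was 10.7 TPM in wild-type eyes and 17.6 TPM in Tug1-/- eyes. Egr2, a Schwann cell transcription factor, was 0.994 and 1.81 TPM and was kept through its Tug1-/- mean alone. Its wild-type mean was 10.2 TPM in brain and 19.7 TPM in MEF, so it is not particular to Schwann cells here. The summed level of the Schwann cell list was 208 TPM in wild-type eyes and 259 TPM in Tug1-/- eyes.

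All 9 genes of skeletal muscle were past 1.5-fold higher, with a summed level of 6848 TPM in wild-type eyes and 12093 TPM in Tug1-/- eyes. Acta1, the actin of skeletal muscle, was 1277 and 2464 TPM. Of 9 genes of the corneal epithelium, a list chosen and trimmed after its values were seen, 5 were past the limit and all 5 lower, with summed levels of 7656 and 4638 TPM. The choice of genes bears on that count. Krt12, the keratin of the cornea, was 1872 and 1085 TPM. Of 7 conjunctival genes, chosen and trimmed in the same way, 2 were past the limit, both higher, and the summed level was 1133 and 975 TPM. Of these, Muc5ac was 0.556 and 8.43 TPM and was kept through its Tug1-/- mean alone.

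Lists of the retina and lens, and of neurons and astrocytes, held no gene past the limit. None of 10 photoreceptor genes, 8 lens genes, 14 neuron genes or 10 astrocyte genes was past the limit, with medians of -0.18, -0.05, -0.22 and -0.04. None of 8 genes of the retinal pigment epithelium or 8 of retinal ganglion cells, whose axons form the optic nerve, was past it either, with medians of -0.02 and -0.17. All 14 neuron genes and all 10 photoreceptor genes were below 0. Most genes in eyes were below 0 as well, with a median of -0.11 and quartiles of -0.23 and 0.02 over all genes. The list medians given here are not relative to that median, and they lie between these quartiles. The part of muscle, nerve and epithelium in the members' values was not tested.

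**Figure D3:**
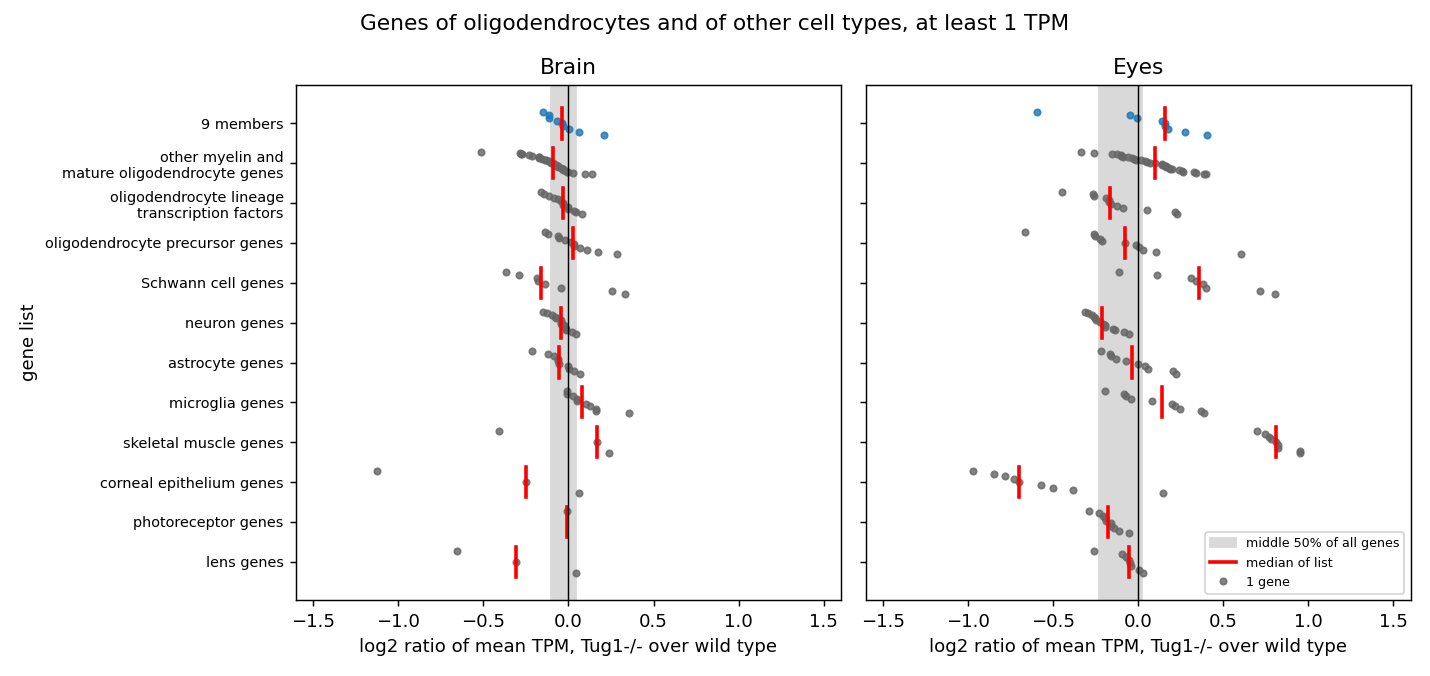
Log2 ratio of the Tug1-/- mean over the wild-type mean for each gene of at least 1 TPM (points) in the members and in lists of other cell types, in brain (left) and eyes (right), with the median of each list in red and the middle 50% of all genes in grey. In eyes the skeletal muscle genes lie between 0.70 and 0.95 and the corneal genes between -0.97 and 0.14, while in brain the other myelin genes lie between -0.52 and 0.14, with a median of -0.09.

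In liver, Olig1 differed most among the members. It was 8.14 TPM in wild-type liver and 3.80 TPM in Tug1-/- liver, a log2 ratio of -1.08, with a mean normalized count of 232. It was 1 of 2 members of at least 1 TPM there, and 6.02% of 12121 genes were past 1.5-fold, 2.65% being lower. The other, Cnp, was 14.2 and 11.5 TPM, a log2 ratio of -0.30. The other myelin members were low in wild-type liver, with Mbp at 0.252 TPM, Mag at 0.102 TPM and Mog at 0.0451 TPM, and Olig2, Opalin and Mobp were not listed there.

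In spleen, none of 4 members was past the limit, where 10.5% of 17260 genes were. Cnp was 247 TPM in wild-type spleen and 215 TPM in Tug1-/- spleen, a log2 ratio of -0.20, where the overlapping Dnajc7 was 170 and 163 TPM. Mag was 2.82 and 2.20 TPM, a log2 ratio of -0.34. Mbp was 33.8 and 34.4 TPM and Mal 6.30 and 6.29 TPM. The median of all genes in spleen was -0.11, and relative to it Mag was at -0.23, Cnp at -0.09, Mal at 0.11 and Mbp at 0.13, so that Mal turned from just below to above 0.

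In prostate, none of 3 members was past the limit, where 7.99% of 15547 genes were. Mal was 106 TPM in wild-type prostate and 103 TPM in Tug1-/- prostate, Cnp was 19.6 and 20.1 TPM and Mbp was 16.6 and 15.97 TPM. These 3 ratios lay between -0.05 and 0.04 on the log2 scale.

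In heart, none of 3 members was past the limit, where 4.56% of 14004 genes were. Mal was 17.1 and 19.5 TPM, Cnp 10.4 and 8.70 TPM and Mbp 2.98 and 2.54 TPM, log2 ratios of 0.18, -0.25 and -0.22. The median of all genes in heart was 0.10, and relative to it the 3 members were at 0.08, -0.36 and -0.32. In the same means 7 of 9 skeletal muscle genes were past the limit and all 7 lower, with a median log2 ratio of -3.82 over the list, and its part in the members' values was not tested.

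In MEF, neither of the 2 members of at least 1 TPM was past the limit, where 7.73% of 14824 genes were. Cnp was 14.1 TPM in wild-type cells and 12.6 TPM in Tug1-/- cells, a log2 ratio of -0.16. Mbp was 2.24 and 1.74 TPM, a log2 ratio of -0.35.

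Testes were read from a table made apart from the other tissues. Of 5 members of at least 1 TPM, 2 were past 1.5-fold and both lower in Tug1-/- testes, where 6.26% of 22378 genes were past the limit in either direction and 3.51% were past it and lower. Mal was 11.6 TPM in wild-type testes and 4.62 TPM in Tug1-/- testes, a log2 ratio of -1.31, and Olig1 was 3.64 and 1.93 TPM, a log2 ratio of -0.88. Cnp was 4.90 and 7.13 TPM, a log2 ratio of 0.53, just inside the limit, while Dnajc7, which overlaps it on the opposite strand, was 139 and 136 TPM. Mag was 12.3 and 13.0 TPM and Mbp was 1.14 and 1.16 TPM.

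Rescue testes share the Tug1-/- mean with this comparison, so the 2 are only set side by side. Mal was 3.98 TPM and Olig1 1.78 TPM in rescue testes, both below the Tug1-/- and the wild-type means. Cnp was 6.40 TPM, Mag 13.8 TPM and Mbp 1.06 TPM. None of the 5 members was past the limit between rescue and Tug1-/- testes, where 4.65% of 22180 genes were. Gm15966, the noncoding RNA that overlaps Olig1, was 15.8 TPM in wild-type, 16.1 TPM in Tug1-/- and 12.2 TPM in rescue testes, above Olig1 itself.

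Genes of the epididymis, the duct joined to the testis, also differed between these means. Of 11 such genes, chosen and trimmed after their values were seen, 9 were past the limit and lower in Tug1-/- testes and 1, Crisp1, was past it and higher. The choice of genes bears on these counts. Their summed level was 6198 TPM in wild-type testes, 1439 TPM in Tug1-/- testes and 600 TPM in rescue testes. In the same order, Cst8 was 747, 626 and 590 TPM and Crisp1 was 427, 760 and 0.348 TPM. These genes hold most of the Tug1-/- and rescue sums. Gpx5, an epididymal glutathione peroxidase, was 1921 TPM in wild-type, 0.981 TPM in Tug1-/- and 0.297 TPM in rescue testes. Other lists also held genes past the limit in the same means. Of 23 measured genes of the other myelin list, 2 were past it and lower, the gap junction gene Gjb1 at 1.15 TPM in wild-type testes and 0.0176 TPM in Tug1-/- testes and the lipid carrier gene Apod at 8.77 and 3.15 TPM, and the median log2 ratio of the list was 0.13. Of 8 measured Schwann cell genes, 1 was past it and lower, Egr2 at 9.77 and 0.734 TPM. Gjb1 and Egr2 were under 1 TPM in Tug1-/- testes and were kept through their wild-type means alone. Of 8 measured skeletal muscle genes, 7 were past the limit and higher in Tug1-/- testes. Among them, Ckm, Tnni2, Tnnt3, Acta1 and Myh4 were under 1 TPM in wild-type testes and were kept through their Tug1-/- means alone. The summed level of the list was 15.6 TPM in wild-type testes, 63.7 TPM in Tug1-/- testes and 20.9 TPM in rescue testes. Of 8 measured genes of the corneal epithelium list, which includes general epithelial genes such as Krt5 and Cdh1, 5 were past the limit and lower, with summed levels of 48.6, 33.2 and 23.9 TPM. The part of epididymal, muscle and epithelial content in the members' levels was not tested.

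**Figure D4:**
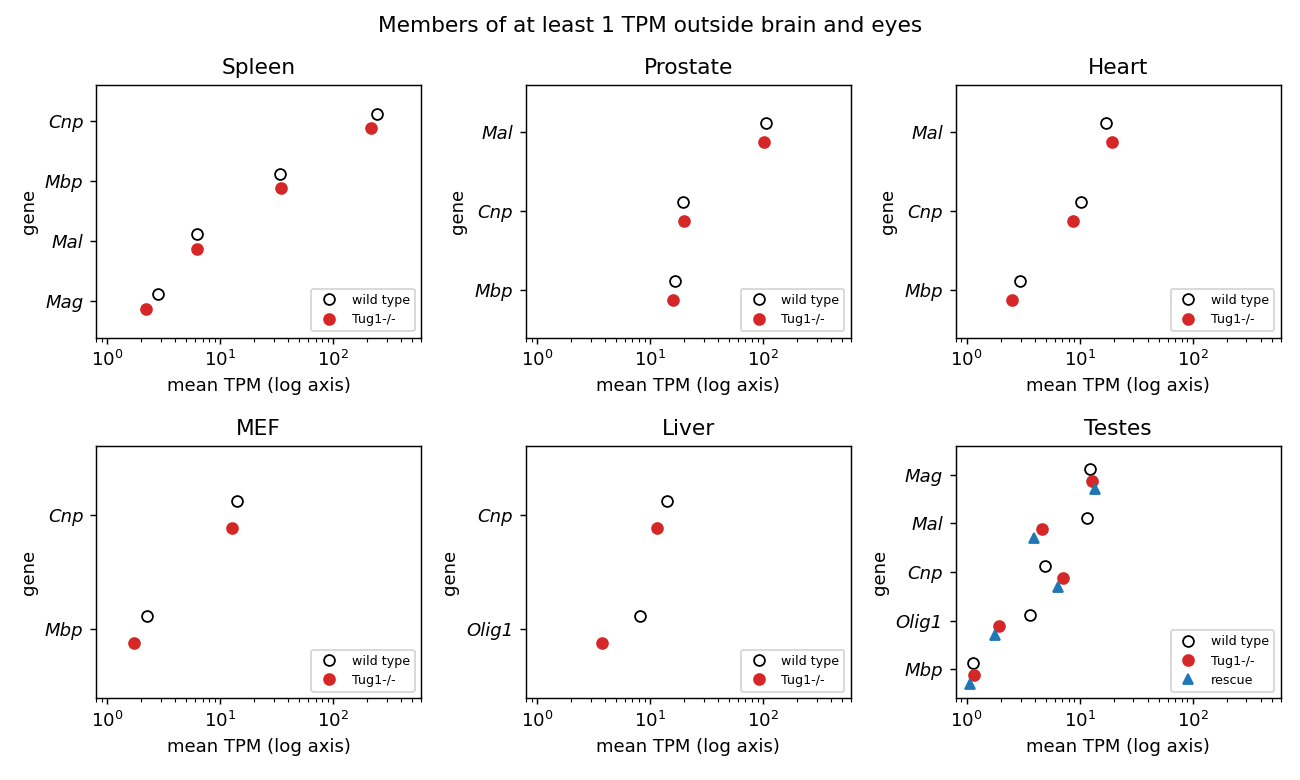
Mean level in TPM, on a log axis, of the members of at least 1 TPM in 6 tissues, with open circles for wild type, red circles for Tug1-/- and, in testes, blue triangles for rescue. The pairs of circles lie close together for most members, with the widest gaps for Olig1 in liver, at 8.14 and 3.80 TPM, and for Mal in testes, at 11.6 and 4.62 TPM.

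The genes most like the members across tissues were ranked by Pearson's r with the members' mean pattern over 14 group means, 2 genotypes in each of 7 tissues without testes, which came from 1 table with the same processing. The 3 closest were Grin1os, Dlgap3 and Kndc1, each with an r of 0.996. Dlgap3, a scaffold protein of excitatory synapses, was 164 TPM in wild-type brain and 27.3 TPM in wild-type eyes, a step between tissues like that of the members. The other genes among the first 10 included Scn8a, a sodium channel of neurons, and Nlgn3, a synaptic adhesion protein. With brain left out, 3 of the first 10 were shared. Over so few tissues the ranking describes which genes are high in brain and eyes.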

How the data were processed

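RNA-seq of wild-type and Tug1-/- mouse tissues was read from 2 deposited tables, of 7 tissues and of testes. Libraries were made from polyadenylated RNA. Reads were aligned by the authors to GRCm38 with STAR and GENCODE vM16, uniquely mapped reads were counted per gene with featureCounts, and a gene was kept where some replicate had 3 or more reads. The submitters' processing notes name CASAVA 1.8.2, STAR, featureCounts and DESeq2. Other versions and the strand setting were not given in the sources used here. The deposited values used are the authors' group means in TPM (5 columns), with no SD or n, and the authors' signal column of the 7-tissue table, a mean normalized count over all libraries of a tissue. The deposited tables also hold the authors' comparisons (log2 fold changes with standard errors, test statistics, p-values and adjusted p-values, significance marks), which were not used. The number of libraries behind a mean was taken from the labels, which hold no brain sample.

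Ratios were log2((mean TPM + 0.1)/(mean TPM + 0.1)), which understates the change of low genes. Genes of at least 1 TPM in either mean were kept, and 1.5-fold was a limit of size, not a test. A gene of at least 1 TPM in only 1 of the means was kept through the group where it was higher. For such a gene, being kept and being past the limit are not independent. Replicate numbers could not be used, since only means were at hand. The members and 17 lists of cell types were chosen with earlier results of these data known. Some genes of these lists are not reported here and were left out of their counts. The genes named were Tug1, the members, list genes past 1.5-fold in brain or eyes, the 3 highest of a list and the 10 most like the members. Myrf, Sox10, Pdgfra, Gpr17, Bcas1, Ugt8a, Gpr37, Gjb1 and Apod were named in addition after their values were seen, as were 3 further lists (corneal, conjunctival and epididymis genes, from which some candidates were dropped), the share of genes of at least 20 TPM and the check of 24 tissue markers. Annotation overlaps were read from GENCODE vM21 and promoters from RefSeq. Alternatives were a pseudocount of 1 TPM or none, no minimum or 5 TPM, limits of 1.25-fold and 2-fold, centring on the median of all genes, the members without Cnp and Mal and, added after the values were seen, rescaling without epididymis or skeletal muscle genes. Since the authors' standard errors were not used, a median or a gene's ratio was called moved past 0.1 on the log2 scale, and a count past 1.5 times. The steps were tested on simulated data. The scripting language was Python 3.11.15, with the packages pandas 2.3.3, matplotlib 3.10.9 and numpy 2.4.6.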

Additional observations from a re-analysis of the deposited data

How the results depend on the processing

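No paired analysis was possible because the tables hold group means and no values of single samples, and for the same reason no replicate could be left out. Depth per sample is unknown, so means of low genes such as Opalin and Olig2 in eyes carry an error that the means alone do not give. The standard errors of the authors' comparisons were not used. Of the counts, medians and the ranking under an alternative, 110 values stayed within the tolerance and 14 moved, where a median may differ by 0.1 and a count by 1.5 times. Medians near 0 changed sign in spleen, from -0.10, when centred, and in testes, from 0.01 to -0.0177 when centred and -0.0763 with no minimum. The cause of these moves was not tested. Centred on the median of all genes, the members past the limit in eyes numbered 0 and the members' median was 0.27 in eyes, -0.325 in heart and 0.00904 in spleen. With the lower alternative limit, 2 members passed in eyes, 1 in spleen, 1 in MEF and 3 in testes. With a limit of 2-fold, 0 passed in eyes and 1 in testes. With a minimum of 5 TPM, the median in heart was -0.0340 and 1 member passed in testes, fewer genes being tested. The median in liver was -0.69 over 2 members, -0.0828 over the 6 listed there with no minimum, and -1.08 for Olig1 alone, without Cnp and Mal. Rescaling without epididymis or muscle genes shifts every gene of a comparison nearly alike, so it bears on the scale and not on the content of a tissue. The ranking by likeness shared 3 of its first 10 genes with that made without brain. In brain, no alternative moved the count of 0 members or the median of -0.04 past the tolerance.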

Other observations

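Beside the muscle, corneal and conjunctival genes counted above in eyes, the following genes of lists outside the myelin groups were past 1.5-fold in brain or eyes. In brain, Bfsp2, a filament protein of the lens, was 11.04 TPM in the wild-type and 6.98 TPM in the Tug1-/- mean, and Rpe65, an enzyme of the visual cycle, was 2.89 and 1.72 TPM. Krt12, the keratin of the cornea, was 10.4 TPM in the wild-type and 4.69 TPM in the Tug1-/- brain mean. In eyes, Ly6c1, a surface protein of endothelial cells and monocytes, was 27.7 TPM in the wild-type and 44.2 TPM in the Tug1-/- mean. Cbln1, a synaptic organizer of the cerebellum, was 14.9 and 9.70 TPM there.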
